A study of Mus musculus with 6 samples.

Results

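Notch receptors, their ligands, the enzymes that modify them and the DNA-binding factor of the pathway were followed at the transcript level in GT1-7 cells given arginine vasopressin (AVP). The set was chosen by gene symbol, with earlier results of these data known, and holds 10 of the 24391 gene rows. These are the receptor genes Notch1, Notch2 and Notch3, the ligand genes Dll1, Dll3, Jag1 and Jag2, the modifier genes Lfng and Dtx4, and Rbpj. GT1-7 is an immortalised mouse hypothalamic cell line with the features of neurons that release gonadotropin-releasing hormone. Wild-type cells of this line went without serum for 12 h, after which 3 cultures received AVP, a peptide hormone, at 200 pg/mL for 6 h, and 3 control cultures received vehicle for the same time (another label calls them untreated). Each culture gave 1 RNA-seq library, all 6 share a batch label, and the labels call the cultures of a group biological replicates. The AVP libraries are numbered 1 to 3 and so are the control libraries, and values per library follow that order.

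Notch receptors sit in the cell membrane and are bound by Delta-like and Jagged ligands on neighbouring cells. Binding leads to cleavage of the receptor, and the freed intracellular domain enters the nucleus, joins RBPJ and Mastermind proteins on DNA and activates target genes such as those of the Hes and Hey families. In the developing nervous system, the hypothalamus included, the pathway is known for holding progenitor cells back from becoming neurons. Fringe glycosyltransferases such as LFNG change which ligands a receptor answers to, and Deltex proteins are ubiquitin ligases that act on Notch receptors.

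Libraries held 35597040 to 37418318 counts with AVP and 34908867 to 36826004 counts in controls (exact two-sided permutation p = 0.5, where 3 against 3 cannot go below 0.1). At this depth 3 counts correspond to 0.0802 to 0.0843 CPM (counts scaled to library size) in AVP libraries and to 0.0815 to 0.0859 CPM in control libraries. Genes with a count numbered 16674 to 16739 per AVP library and 16166 to 16403 per control library, and the nuclear RNA Malat1 stood at 1499 to 1724 CPM with AVP and 499 to 1106 CPM in controls (exact two-sided permutation p = 0.1 for each, the smallest possible). Control replicate 1 carried 0.995% of its counts on the ribosomal RNA precursor Rn45s, the control library with the next most 0.184%, and the AVP libraries 0.211 to 0.245%. Of 12 neuronal markers 11 were tested, and 6 rose and 0 fell, with summed levels of 1589 to 1708 CPM with AVP and 1219 to 1249 CPM in controls. Rising and falling here stand for an adjusted p under 0.05. That is 54.5% of the tested neuronal markers called. Over all tested genes 57.5% were called, 28.7% rising and 28.8% falling, which is the share to set beside each marker count. Gnrh1, the hormone gene that names the cell type, averaged only 0.418 ± 0.148 CPM with AVP and 0.483 ± 0.236 CPM in controls (SD, n = 3), while of the 7 markers of these neurons Gnrhr and Isl1 rose, 0 fell, and Dlx5 had 0 counts throughout. Stmn2 of the neuronal list had at most 1 count in a library. Markers of microglia summed to at most 0.264 CPM with AVP and 0.173 CPM in controls. Of the 6 oligodendrocyte markers Mog, Mag and Olig2 had 0 counts in all libraries, while Mbp made up most of a summed level of 17.1 to 19.2 CPM with AVP and 48.0 to 53.6 CPM in controls, and the 2 that were tested fell. Of the 6 astrocyte markers 1 rose and 0 fell, and the sum of 170 to 222 CPM with AVP and 111 to 131 CPM in controls was nearly all Slc1a2. Fibroblast markers, with Col3a1 and Lum at 0, summed to 8.49 to 9.78 CPM with AVP and 20.3 to 24.3 CPM in controls, where 2 fell and 0 rose. Endothelial markers, with Cldn5 at 0, summed to 245 to 276 CPM with AVP and 303 to 332 CPM in controls, nearly all of it Kdr, and 1 fell and 0 rose. The part of these measures in the results on Notch genes was not tested.

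The question for the Notch genes was which of them differ between AVP-treated and control cells. Levels shifted in opposite directions within the same roles: among ligands Jag1 and Jag2 rose and Dll1 fell, among receptors Notch2 rose and Notch1 fell, and among modifiers Lfng rose and Dtx4 fell. In all, 5 of the 10 genes rose (Notch2, Jag1, Jag2, Lfng and Rbpj) and 3 fell (Notch1, Dll1 and Dtx4) at an adjusted p under 0.05 (edgeR quasi-likelihood F test, Benjamini-Hochberg over all tested genes), Dll3 did not pass the threshold, and Notch3 had too few counts to be tested. Across the transcriptome 57.5% of the 14163 tested genes passed the same threshold, 28.7% rising and 28.8% falling, so a change of this kind was common in these cells. The 8 genes that passed were also those whose AVP and control values did not overlap, as was the case for 63.4% of all tested genes. Sizes differed widely, from a log2 fold change of 0.17 for Rbpj to 2.77 for Lfng, and the median absolute log2 fold change of the 9 tested genes was 0.86 against 0.32 over all tested genes, given as a description. The members were chosen with earlier results of these data known, so a median above that of all genes is no test of the set. Lfng reached the filter on low counts in all 3 AVP libraries and in 1 control library, and Dll3 in 3 and 2, so for Lfng entry to the test depended on the AVP libraries. In bulk RNA, fewer cells that carry a transcript and less of it per cell cannot be told apart.

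**Figure D1:**
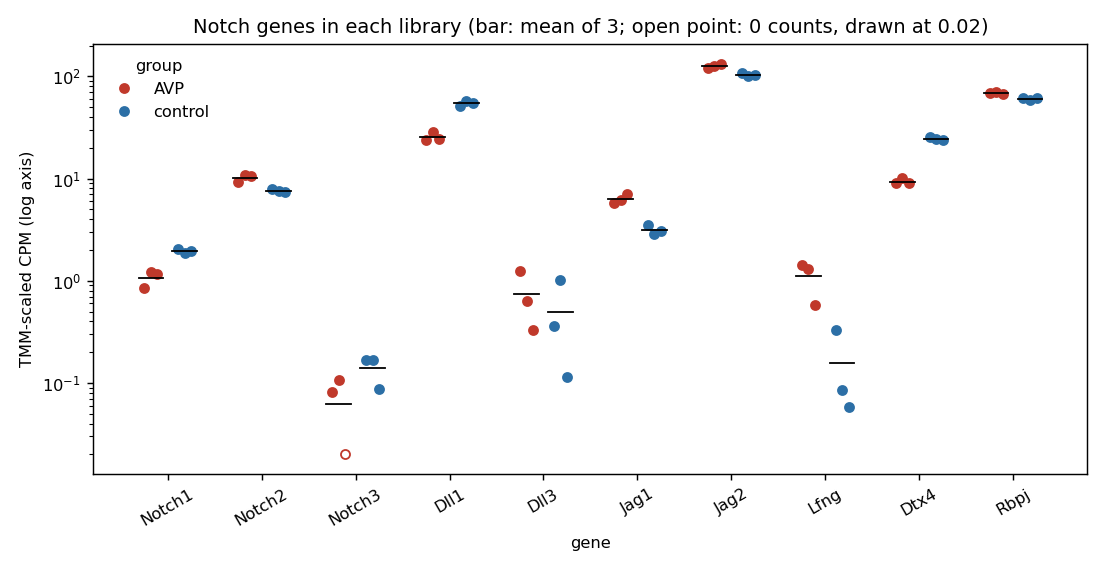
Level of each Notch gene in each of the 6 libraries, as TMM-scaled CPM on a log axis, with AVP libraries (red) left of control libraries (blue). Bars mark group means of 3, and the open point is the AVP library without a Notch3 count. The groups are apart for 8 genes and overlap for Dll3 and Notch3.

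Among the ligand genes of the set, Jag2 was the most abundant and Dll1 changed the most among those with high counts. Jag2, which encodes a Jagged-type ligand (GRCm38 chromosome 12, 112907819 to 112929776, minus strand), had 120, 126 and 133 CPM with AVP, against 107, 100 and 103 CPM in controls. Every AVP library lay above every control library, but the difference was small, with a log2 fold change of 0.29 (SE 0.06, adjusted p = 0.000398). Jag1, the other Jagged ligand gene (chromosome 2, 137081456 to 137116644, minus strand), had 5.82, 6.13 and 7.03 CPM with AVP, against 3.48, 2.84 and 3.06 CPM in controls. Jag1 rose 2.02-fold (log2 fold change 1.02, SE 0.16, adjusted p = 7.42e-05), from 214 to 253 counts per AVP library and 101 to 126 counts per control library.

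Dll1, a Delta-like ligand gene used in lateral inhibition between neighbouring progenitors (chromosome 17, 15367354 to 15376872, minus strand), had 23.8, 28.7 and 24.2 CPM with AVP, against 51.3, 57.5 and 54.6 CPM in controls. The lowest control library thus lay well above the highest AVP library, and Dll1 fell by 1.09 on the log2 scale (SE 0.08, adjusted p = 3.22e-08), to 0.47 of its control level. Dll3 encodes a Delta-like protein that is known to act inside the cell and not as an activating ligand (chromosome 7, 28293553 to 28302238, minus strand). It had 46, 24 and 12 counts in the AVP libraries, against 13, 36 and 4 counts in the control libraries. These values overlap, and the libraries of a group differed by several times among themselves, with a coefficient of variation of 63.3% with AVP and 93.6% in controls. The log2 fold change of Dll3 was 0.57 (SE 0.64, adjusted p = 0.471). It turned to -0.033 without AVP replicate 1 and was 1.61 without control replicate 2, neither past the threshold, so no direction is given.

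The promoters of the opposed ligand genes are shown because one gene rose and the other fell in the same cultures. They are RefSeq windows on GRCm38.p6 that run from 250 bases before to 50 bases after the annotated start, read 5′ to 3′ on the gene's own strand, which is the minus strand for Jag1 and Dll1, and for Dll1 at the upstream of its 2 starts. Capitals, here and further on, would mark the core letters bound by RBPJ, TGGGAA, on either strand. Neither window holds these letters, nor does the window at the other annotated Dll1 start.
Jag1 (chr2:137116471-137116770): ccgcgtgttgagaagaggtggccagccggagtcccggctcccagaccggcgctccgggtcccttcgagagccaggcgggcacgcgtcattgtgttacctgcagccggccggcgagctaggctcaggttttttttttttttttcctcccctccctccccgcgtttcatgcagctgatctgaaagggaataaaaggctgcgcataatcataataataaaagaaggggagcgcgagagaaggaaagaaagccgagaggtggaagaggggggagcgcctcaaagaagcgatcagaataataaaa
Dll1 (chr17:15376883-15377182): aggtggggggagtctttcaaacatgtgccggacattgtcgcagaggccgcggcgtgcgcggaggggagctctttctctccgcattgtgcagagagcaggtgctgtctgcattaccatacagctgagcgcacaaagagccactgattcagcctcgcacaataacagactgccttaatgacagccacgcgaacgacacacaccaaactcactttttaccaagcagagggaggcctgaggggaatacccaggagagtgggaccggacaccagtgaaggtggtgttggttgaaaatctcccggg

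Levels of different genes were compared per kilobase (kb) of the longest annotated coding transcript. In AVP libraries Dll1 made up 20.9, 23.6 and 19.7% of the summed level of Dll1, Dll3, Jag1 and Jag2, against 39.8, 43.9 and 42.4% in control libraries. Jag2 made up 74.3, 72.5 and 76.2% with AVP and 58.1, 53.7 and 56.0% in controls. Jag1 was a minor ligand in every library, at 3.38 ± 0.24% with AVP and 1.54 ± 0.171% in controls (SD, n = 3), and Dll3 averaged 0.864% with AVP and 0.521% in controls. Jag2 held the largest part of this sum in all 6 libraries, and the AVP and control libraries did not overlap in the share of Dll1 or of Jag2. With the length of the coding sequence in place of the transcript, Dll1 averaged 24.7% with AVP and 46.6% in controls. Dner, of the other receptor and ligand genes and outside this sum, was named after its values were seen. It stood at 65.9 CPM per kb of transcript with AVP and 67.0 CPM per kb in controls, above Jag2 in both, with a log2 fold change of -0.02.

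**Figure D2:**
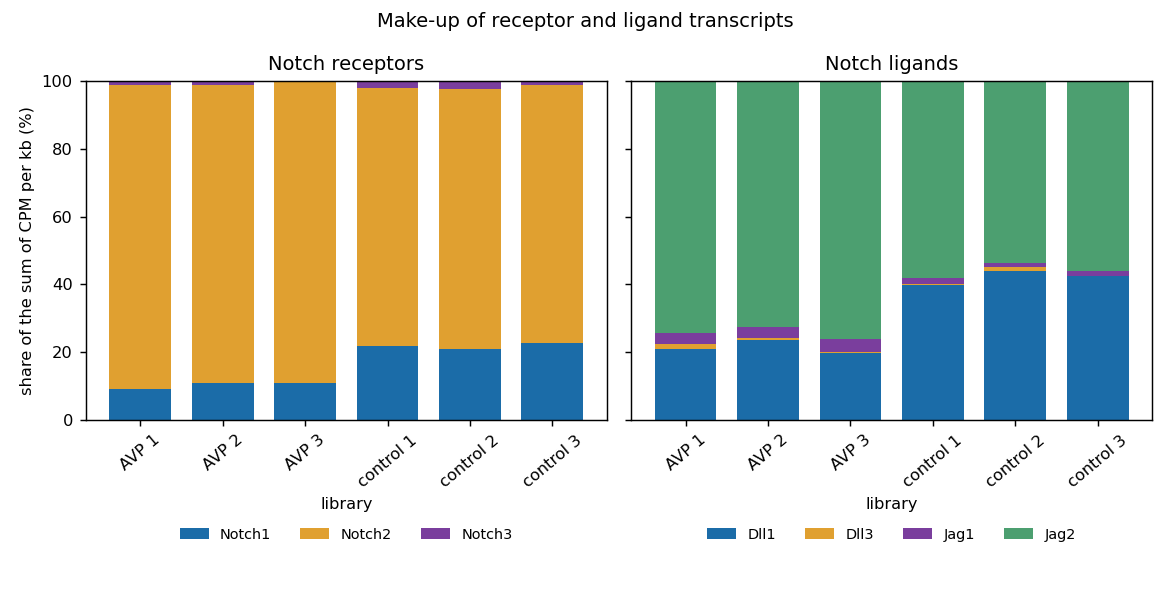
Share of Notch1, Notch2 and Notch3 in their summed CPM per kb (left, without Notch4) and of Dll1, Dll3, Jag1 and Jag2 in theirs (right), in percent, with the 3 AVP libraries left of the 3 control libraries. Dll4, Dlk1, Dlk2 and Dner are not in the ligand sum. Dll1 spans 19.7 to 23.6% of the ligand bar with AVP and 39.8 to 43.9% in controls, and Notch1 spans 9.12 to 11.0% of the receptor bar with AVP and 21.0 to 22.5% in controls.

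The receptors were far less abundant than the main ligands, and Notch2 was the leading one. Notch2 (chromosome 3, 98013527 to 98150361, plus strand) had 9.19, 10.8 and 10.7 CPM with AVP, against 7.88, 7.51 and 7.36 CPM in controls. It rose by 0.43 on the log2 scale (SE 0.12, adjusted p = 0.00707), and the AVP and control libraries did not overlap. Notch1 (chromosome 2, 26457903 to 26516663, minus strand) had 0.843, 1.22 and 1.17 CPM with AVP, against 2.05, 1.86 and 1.96 CPM in controls, from 31 to 46 and 66 to 74 counts. It fell by 0.86 on the log2 scale (SE 0.26, adjusted p = 0.00983), to 0.551 of its control level, again without overlap.

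Notch3, the receptor known from smooth muscle and pericytes (chromosome 17, 32120820 to 32166852, minus strand), had 3, 4 and 0 counts in the AVP libraries, against 6, 6 and 3 in the control libraries. The ratio of the summed counts, 7 with AVP and 15 in controls, was 0.46 per library size, with a 95% counting interval of 0.159 to 1.2 that covers counting error only. A difference in Notch3 was not detectable at this depth. Per kb, Notch2 made up 89.8, 87.9 and 89.2% of the summed level of Notch1, Notch2 and Notch3 with AVP, against 76.1, 76.7 and 76.3% in controls, and Notch1 9.12, 11.0 and 10.8% with AVP, against 21.9, 21.0 and 22.5% in controls. Notch4, a receptor gene outside the 10 and outside this sum that was picked after its values were seen, stood at 0.282 CPM per kb with AVP and 0.256 CPM per kb in controls, above Notch1 in both, with a log2 fold change of 0.14 (SE 0.24, adjusted p = 0.636).

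The modifiers showed the largest differences of the set. Lfng, the lunatic fringe gene (chromosome 5, 140607320 to 140615545, plus strand), had 53, 49 and 21 counts in the AVP libraries, against 12, 3 and 2 in the control libraries, of which the last pair lie at or under the floor of 3 counts. In CPM these are 1.44, 1.30 and 0.583 with AVP, against 0.332, 0.0844 and 0.0577 in controls. Lfng rose, with a log2 fold change of 2.77 (SE 0.56, adjusted p = 0.000623), larger in size than 99.2% of tested genes. Only 1 control library reached the filter, so Lfng was tested through its AVP libraries, and this p and rank are descriptions. The size is poorly fixed: without control replicate 1, which holds 12 Lfng counts, it was 3.90, and without control replicate 3 it was 2.38. With Rn45s left out it was 2.77. Another fringe gene, Mfng, named after its values were seen, had 10, 20 and 28 counts in AVP libraries, against 6, 2 and 0 in controls, and fell short of the filter. Its summed counts, 58 with AVP and 8 in controls, gave a ratio of 7.15 per library size. The 95% counting interval of 3.40 to 17.3 covers counting error only and leaves out the spread between libraries. The remaining fringe gene, Rfng, was also named after its values were seen. It averaged 57.0 CPM with AVP and 60.7 CPM in controls, and its groups overlapped (log2 fold change -0.09, SE 0.07, adjusted p = 0.320). Per kb it stood at 26.9 CPM with AVP and 28.6 CPM in controls, far above Lfng (0.480 and 0.0685) and Mfng (0.282 and 0.0397).

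Dtx4, a Deltex-type ubiquitin ligase gene (chromosome 19, 12466338 to 12501454, minus strand), had 8.95, 10.0 and 9.0 CPM with AVP, against 25.4, 24.4 and 23.9 CPM in controls. The replicates were close, and Dtx4 fell by 1.39 on the log2 scale (SE 0.10, adjusted p = 1.07e-08), to 0.381 of its control level, the smallest adjusted p of the set. Of the tested genes 10.0% passed the threshold with a change of at least 2-fold, a size that Lfng, Dtx4, Dll1 and Jag1 reached here.

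Rbpj, which encodes the DNA-binding partner of the cleaved receptors (chromosome 5, 53466152 to 53657362, plus strand), had 68.0, 69.9 and 67.0 CPM with AVP, against 62.0, 58.7 and 60.9 CPM in controls. The groups did not overlap, but the rise of 0.17 on the log2 scale (SE 0.06, adjusted p = 0.0209) was the smallest called in the set. The call was lost without AVP replicate 2 (adjusted p = 0.0831) and without control replicate 2 (adjusted p = 0.0956).

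**Figure D3:**
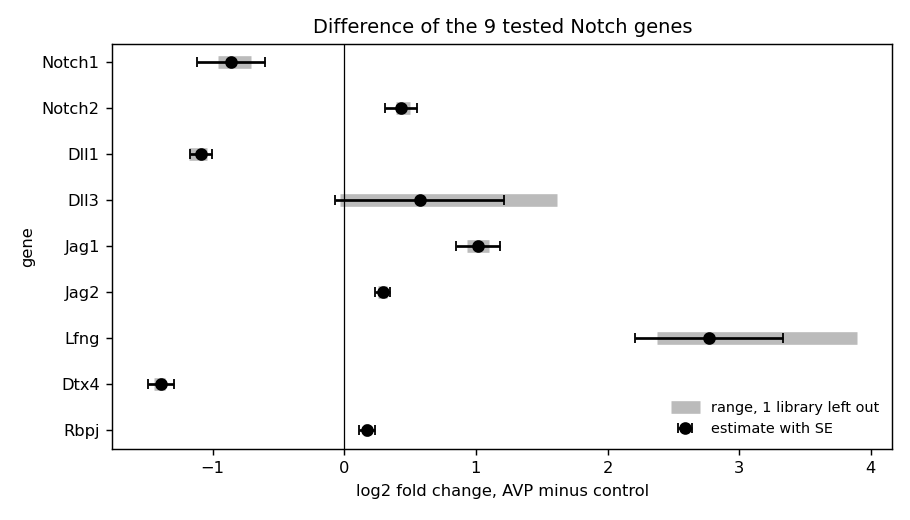
Log2 fold change (AVP minus control, horizontal axis) of the 9 tested Notch genes, with the standard error as a line and, in grey, the range when any 1 of the 6 libraries is left out. The grey range crosses 0 for Dll3 alone, from -0.033 to 1.61, and for Lfng it runs from 2.38 to 3.90.

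Ordered by level per kb, the set ran Jag2, Rbpj, Dll1, Dtx4, Jag1, Notch2, Lfng, Dll3, Notch1 and Notch3 with AVP, with means of 24.8, 12.5, 7.14, 1.79, 1.13, 0.972, 0.480, 0.283, 0.113 and 0.00779 CPM per kb. In controls the order was Jag2, Dll1, Rbpj, Dtx4, Notch2, Jag1, Notch1, Dll3, Lfng and Notch3, with means of 20.2, 15.2, 11.0, 4.69, 0.722, 0.557, 0.206, 0.189, 0.0685 and 0.0175 CPM per kb. Dll1 and Rbpj, Jag1 and Notch2, and Lfng and Notch1 thus stood in opposite orders in the AVP and control groups. Neighbours whose libraries overlapped were Lfng with Dll3 and Dll3 with Notch1 with AVP, and Notch1 with Dll3 and Dll3 with Lfng in controls. Scaled to coding sequence, Rbpj stood above Jag2 and Dll1 in both groups, and Dll3 above Notch1 in controls. With that length Lfng also overlapped Notch2 with AVP and Notch1 in controls. These places, the opposite order of Lfng and Notch1 included, thus depend on the length used.

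The genes most like a member were sought by the root mean square difference of centred log2 CPM over the 6 libraries, among 12007 genes of at least 1 CPM on average. Closest to Jag1, the largest rise at that level, were Cecr6 (0.05), Cmbl (0.07) and Bcl9l (0.07), with log2 fold changes of 1.06, 0.98 and 0.98. Closest to Dtx4, the largest fall, were Tns1 (0.04), which encodes a focal adhesion protein, the cationic amino acid transporter gene Slc7a1 (0.04) and Bcat1 (0.05), a branched-chain aminotransferase gene, with log2 fold changes of -1.36, -1.44 and -1.41. These distances are descriptions of 6 libraries in 2 groups.

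Around the 10 genes, 50 further pathway genes fell into 9 lists, of which 45 were tested, and 19 rose and 12 fell. That is 68.9% called, where 57.5% of all tested genes were, and the median log2 fold change of 0.08 compares with 0.01 over all tested genes. The lists were chosen with earlier results of these data known, so these values are descriptions. The counts per list given below rest on few genes and stand beside the same 57.5%. Of the other receptor and ligand genes 0 of the 3 tested passed with edgeR (unadjusted p-values of 0.353 to 0.637), and Dlk1 had 0 counts in all libraries. Genes for ligand endocytosis, a step the ligand-bearing cell needs to pull on the receptor, had the largest median absolute log2 fold change of the 9 lists, 0.89, with 2 of 4 rising and 2 falling. Mib2, a Mind bomb ubiquitin ligase gene, had 23.3, 25.9 and 24.8 CPM with AVP, against 118, 114 and 125 CPM in controls, and fell by 2.27 on the log2 scale (SE 0.07, adjusted p = 7.02e-13). Its relative Mib1 had 46.8, 55.7 and 51.2 CPM with AVP, against 31.2, 32.1 and 27.7 CPM in controls, and rose by 0.76 (SE 0.08, adjusted p = 1.64e-06). The Neuralized genes of this list divided likewise, with Neurl1b falling by 1.02 and Neurl1a, named after its values were seen, rising by 0.41. Other Neuralized genes, such as Neurl3, lie outside the lists.

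Receptor cleavage genes were 4 higher and 4 lower of 10. Adam17, a metalloprotease gene, averaged 69.3 ± 1.25 CPM with AVP and 46.4 ± 0.902 CPM in controls (SD, n = 3) and rose by 0.58 on the log2 scale. Of the gamma-secretase subunit genes, Aph1b averaged 27.6 ± 0.647 CPM with AVP and 15.8 ± 0.121 CPM in controls and rose by 0.81, while Aph1c averaged 0.878 ± 0.16 CPM with AVP and 5.14 ± 1.16 CPM in controls and fell by 2.55. Aph1b and Aph1c are close copies that lie next to each other on chromosome 9, and no source used here says how shared reads were counted, so both values are uncertain. Of the 4 other Deltex genes, Dtx3l rose by 1.23 and Dtx2 and Dtx3 fell by 0.43 and 0.44. Dtx1, named after its values were seen, averaged 105 CPM with AVP and 99.2 CPM in controls. Its groups overlapped and it did not pass the threshold (log2 fold change 0.08, SE 0.07, adjusted p = 0.312). Of the 3 tested glycosylation genes, Pofut1, which adds fucose to Notch receptors, fell by 0.57 and Poglut1, which adds glucose, rose by 0.22 (adjusted p = 0.0515 without control replicate 1).

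Among nuclear partners, coactivator genes were 2 higher and 0 lower of 5, which is 40% called beside 57.5% of all tested genes. Maml2, of the Mastermind family, had 69, 68 and 45 counts with AVP, against 14, 16 and 23 in controls, and rose by 1.71 on the log2 scale (SE 0.33, adjusted p = 0.000418). Ep300, a histone acetyltransferase gene, rose by 0.43. Corepressor genes were 4 higher and 2 lower of 7, with L3mbtl3, whose product binds RBPJ, falling by 0.71 and Ctbp1 by 0.32. Genes for Notch turnover were 2 higher and 1 lower of 5. Numbl, a relative of the Notch inhibitor gene Numb, fell by 0.89 and the ubiquitin ligase gene Fbxw7 rose by 0.26. Itch, another ligase gene, had a log2 fold change of 0.15 (adjusted p = 0.0411), a call lost with DESeq2 (adjusted p = 0.0544), without the count filter (0.0582), and without AVP replicate 1 (0.107) or 2 (0.157) or control replicate 1 (0.0681) or 2 (0.161). The replicate number as a block also ended it (0.0653).

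**Figure D4:**
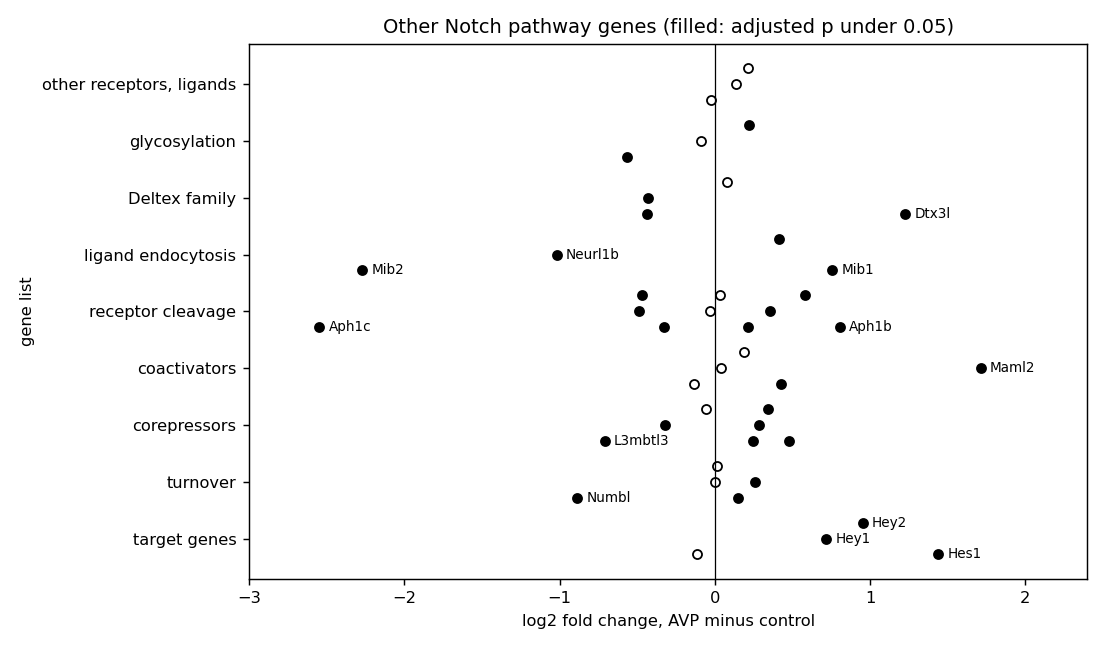
Log2 fold change (AVP minus control) of the 45 tested further pathway genes by list, with filled points for an adjusted p under 0.05 and names for changes beyond 0.65 in size. Mib2 and Aph1c lie farthest to the falling side, at -2.27 and -2.55, and Maml2 and Hes1 farthest to the rising side, at 1.71 and 1.44.

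Of the 6 target genes, 3 rose, 0 fell and 1 did not pass the threshold, and Hes5 and Heyl had too few counts to be tested. Over all tested genes 28.7% rose and 28.8% fell, and a count among only 4 tested targets is a description. Hes1, a repressor of neuronal differentiation genes, had 4.03, 3.33 and 3.83 CPM with AVP, against 1.11, 1.66 and 1.36 CPM in controls, and rose by 1.44 on the log2 scale (SE 0.22, adjusted p = 5.02e-05). Hey2 had 5.66, 5.76 and 8.09 CPM with AVP, against 3.10, 3.63 and 3.35 CPM in controls, and rose by 0.95 (SE 0.18, adjusted p = 0.000283). Hey1 rose by 0.72 (SE 0.17, adjusted p = 0.00199). Nrarp, a feedback inhibitor of Notch, had 5.06, 6.40 and 7.97 CPM with AVP, against 7.47, 7.43 and 6.09 CPM in controls, and these values overlapped (log2 fold change -0.11, SE 0.17, adjusted p = 0.590). Hes5 had 4, 5 and 0 counts with AVP, against 0, 2 and 2 in controls. Heyl had 4, 10 and 17 counts with AVP, against 2, 6 and 4 in controls, and these values overlapped. The ratio of its summed counts was 2.55, with a counting interval of 1.27 to 5.45 that leaves out the spread between libraries, so no direction is given. These genes also answer to other pathways.

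Promoter windows were present in the table for 9 of the 10 genes and for Hes5, Hey2 and Nrarp of the target genes, and were searched on both strands for TGGGAA and for the longer GTGGGAA, which contains it. The short form was in 25.6% and the long form in 6.38% of 32851 windows of the same length, and 3.79% held the short form at least 2 times. Of the 9 genes 2 held the short form, Lfng and Rbpj, each 2 times, beside 25.6% of all windows. Lfng also held the long form. In Lfng the matches began 135 bases (reverse strand) and 108 bases (forward strand, part of the long form) before the start. Hes5 and Hey2 of the 3 target windows held the short form, and Nrarp did not. Hes5 and Hey2 each held the long form 2 times. In Hey2 the short form inside it began 207 bases before the start on the reverse strand and 3 bases before it on the forward strand. The windows of Lfng, Rbpj and Hey2 are printed because these genes rose and hold the letters, with TGGGAA, or its reverse complement, in capitals. Notch2, Jag1 and Jag2 rose as well, and their windows do not hold the letters. Both Rbpj windows lie inside the gene as GENCODE M21 places it, and its start at 53466152 was not searched. The Notch1 window likewise lies inside its gene. A match is a description of the letters, and binding was not measured.
Lfng (chr5:140607091-140607390, plus strand): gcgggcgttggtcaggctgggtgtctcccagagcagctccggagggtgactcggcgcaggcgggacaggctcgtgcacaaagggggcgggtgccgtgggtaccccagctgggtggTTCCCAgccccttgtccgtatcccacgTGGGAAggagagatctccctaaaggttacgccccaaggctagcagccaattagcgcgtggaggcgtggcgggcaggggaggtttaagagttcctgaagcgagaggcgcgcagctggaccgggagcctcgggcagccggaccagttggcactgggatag
Rbpj (chr5:53590096-53590395, plus strand, the upstream of 2 starts): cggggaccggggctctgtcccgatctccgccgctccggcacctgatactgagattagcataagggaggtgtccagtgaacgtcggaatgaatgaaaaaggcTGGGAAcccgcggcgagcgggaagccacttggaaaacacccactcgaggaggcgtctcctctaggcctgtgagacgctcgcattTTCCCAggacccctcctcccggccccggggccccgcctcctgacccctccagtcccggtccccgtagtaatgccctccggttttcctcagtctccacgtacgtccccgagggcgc
Hey2 (chr10:30842734-30843033, minus strand): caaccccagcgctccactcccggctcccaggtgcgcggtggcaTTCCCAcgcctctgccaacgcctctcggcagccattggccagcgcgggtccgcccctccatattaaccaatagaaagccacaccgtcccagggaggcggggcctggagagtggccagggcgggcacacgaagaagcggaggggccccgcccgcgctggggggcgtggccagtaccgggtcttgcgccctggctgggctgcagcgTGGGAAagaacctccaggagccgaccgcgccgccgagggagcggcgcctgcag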

How the data were processed

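Whole-number counts per gene symbol were deposited by the authors, 1 table for each of the 6 samples, and no normalised values were used. The genome is mm10 (GRCm38), per the submitters' processing notes. The sources used here do not give the aligner, counter, annotation or use of strand. If strand was not used, reads of Notch1, Notch3, Dll1 and Rbpj cannot be told from those of genes that GENCODE M21 places opposite them. On its own strand Notch2 overlaps Gm42819 and Gm42820, neither of them a gene row, and strand could not separate reads from the shared bases. Notch1 and Jag2 each overlap a microRNA gene on their own strand. No row was blank, 27 symbols had been turned into dates and stayed as unnamed rows, and 0 columns lay outside the sample map.

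Counts were fitted with edgeR 4.0.16 in R 4.3.3: filterByExpr (minimum count 10), TMM factors, robust quasi-likelihood F test of AVP against control over all 6 samples without covariates, and Benjamini-Hochberg adjustment at 0.05 over 14163 genes. CPM are TMM-scaled, except for Malat1 and the depth floor, which use total counts, and log2 fold changes are AVP minus control with SE = |log2 fold change| / √F. Count ratios have exact 95% intervals that cover counting error only, as reads are not independent molecules. The test was checked on simulated counts with 200 changed genes. Far more genes were called in these data, so that check does not cover a change this wide. Libraries of a group differed beyond sampling noise (chi-square per degree of freedom at least 7.17), so none was taken as a duplicate. Positions and lengths come from GENCODE M21 (GRCm38) and promoters from RefSeq (GRCm38.p6).

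The members and lists were chosen with earlier results of these data known. All members are named, then up to 3 genes per list with the smallest p among those past the threshold, the 6 target genes, and the 3 genes nearest in profile to the member of at least 1 CPM with the largest rise and with the largest fall, leaving out unnamed gene models, pseudogenes and date-like symbols. A gene that this rule names is not reported here. Alternatives were RLE factors, library size alone, DESeq2 1.42.0, limma-voom (limma 3.58.1), filters of 1 count in all libraries together or of 50 counts on average, a test against a fold of 1.2 (glmTreat), the replicate block, each library left out, Rn45s left out and coding length. Tables were handled with Python 3.11.15 and pandas 2.3.3.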

Additional observations from a re-analysis of the deposited data

How the results depend on the processing

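Of 133 refits of the 9 tested Notch genes, 127 kept direction and call, 5 kept only direction and 1 turned. The turn was Dll3, whose log2 fold change ranged from -0.033 to 1.61 with a library left out, and the lost calls were those of Rbpj without AVP replicate 2 or control replicate 2 and, against a fold of 1.2, of Notch2, Jag2 and Rbpj. Against that fold 2197 genes rose and 2332 fell over the transcriptome, 2 of the 10 Notch genes rose and 3 fell, and 12 of the further pathway genes rose, since that test asks for a larger change. With a library left out, 3525 to 4053 genes rose and 3592 to 4166 fell, 4 to 5 of the 10 rose and 3 fell, and 17 to 20 further pathway genes rose and 11 to 12 fell. Nrarp ranged from -0.29 to 0.038 in those refits. Library size alone moved the median of all genes by 0.0352 and gave 4475 rises and 3722 falls, and every tested Notch gene kept its direction and call with it.

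AVP and control samples share replicate numbers, but deviations of same-numbered libraries correlated at 0.0787, -0.0452 and 0.0384, so the numbers are not taken to pair them, and AVP replicate 2 correlated best with control replicate 3. A replicate block left 3972 genes that rose and 3969 that fell, and of the 9 tested Notch genes and 25 further pathway genes refitted with it only Itch lost its call. With coding length, 9 of 14 receptor and ligand shares moved by more than 1 SD. Notch3, Hes5, Heyl and Mfng are limited by depth. A fit of Lfng, Dll3 and other genes under a mean of 50 counts could not be made under that filter.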
